A study of Mus musculus with 12 samples.

Results

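The Wnt family was followed here through 52 genes of secreted ligands, receptors and modulators in mouse hippocampus. They were picked by a rule on gene symbols. It took Wnt, Fzd, Sfrp, Dkk and Rspo genes, Lrp5, Lrp6, Lgr4 to Lgr6, Axin1, Axin2, Lef1, Tcf7, Tcf7l1 and Tcf7l2. The rule used no measured value, but it was set with earlier results of these data known. All 52 had a row among the 36119 genes of the deposited table. Of these, 38 reached an average of 1 or more across libraries and were tested, as were 14947 genes in all.

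Hippocampal RNA came from 12 C57BL/6 mice killed at postnatal day 70, in 4 groups of 3. Standard saline and standard ethanol mice lived in ordinary cages, whereas enriched saline and enriched ethanol mice moved on day 21 to large cages of 2 to 6 littermates of the same sex, with running wheels, toys and added nesting material. Ethanol groups had been given 2.5 g/kg under the skin in 0.15 M saline, and saline groups the vehicle alone, by 2 injections 2 hours apart on days 6 and 7. The series sets early alcohol exposure, as a model of fetal alcohol spectrum disorder, against later enrichment; its labels call the exposure prenatal, although every injection followed birth. All 4 groups thus shared strain, age and injection, the ethanol is a brief exposure of newborn pups, and the labels state neither sex nor litter of any mouse. Separate litters within a group are not stated, and the p-values below therefore speak only for the scatter among these 12 libraries.

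Wnt proteins are lipid-modified secreted ligands that bind Frizzled receptors, and in the canonical branch also the co-receptors Lrp5 or Lrp6. This binding disables a degradation complex built on the scaffold Axin, so that beta-catenin accumulates and acts with TCF/LEF transcription factors. Other Wnts signal through planar polarity or calcium instead. In the adult hippocampus the pathway is known for its part in the renewal of dentate granule neurons and in the shaping of synapses.

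Values are given as deposited TPM (transcript abundance), a measure per transcript length that allows levels of different genes to be compared. The columns summed to between 973187 and 1024536, and sequencing depth is unknown. In bulk tissue, fewer cells of a type and less RNA per cell cannot be told apart. Defining genes of the hippocampus were present in every library, with the granule cell gene Prox1 between 18.7 and 41.9 and the CA1 gene Fibcd1 between 39.7 and 77.8. Enriched saline replicate 2 stood apart by its choroid plexus markers, of which 12 of 12 were in the table. Their summed level was 9233 there, and by group it ran from 265 to 372 in standard saline, from 218 to 722 in standard ethanol, from 197 to 9233 in enriched saline and from 198 to 239 in enriched ethanol libraries. Slc4a5 in standard ethanol replicate 2, and Kcne2 in enriched saline replicate 3 and enriched ethanol replicate 2, were listed at 0. Standard saline replicate 2 had the highest sum of 12 granule cell markers (477, against 261 to 353 elsewhere) and the lowest of 12 meningeal fibroblast markers (85.1, against 109 to 238). It also had the lowest sum of 11 neocortex and subiculum markers (165, against 246.5 to 363). The part of this library's tissue make-up in the differences below was not tested.

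One gene, Dkk3, made up 44.6% of the summed mean level of the 52 genes. Dkk3, a divergent member of the Dickkopf family that is not a typical antagonist of Lrp5 and Lrp6, averaged 230 TPM over the 12 libraries. Behind it came the receptor Fzd3 at 37.3, the co-receptor Lrp6 at 30.7, the ligand Wnt7b at 27.6, the R-spondin receptor Lgr4 at 24.8, Axin2 at 18.2, the R-spondin Rspo2 at 17.5, Axin1 at 16.7 and Rspo3 at 13.0. Every other member averaged under 8. The transcription factors that end the pathway were low, with Lef1 at 2.99, Tcf7l2 at 2.86, Tcf7 at 1.13 and Tcf7l1 at 1.08.

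**Figure D1:**
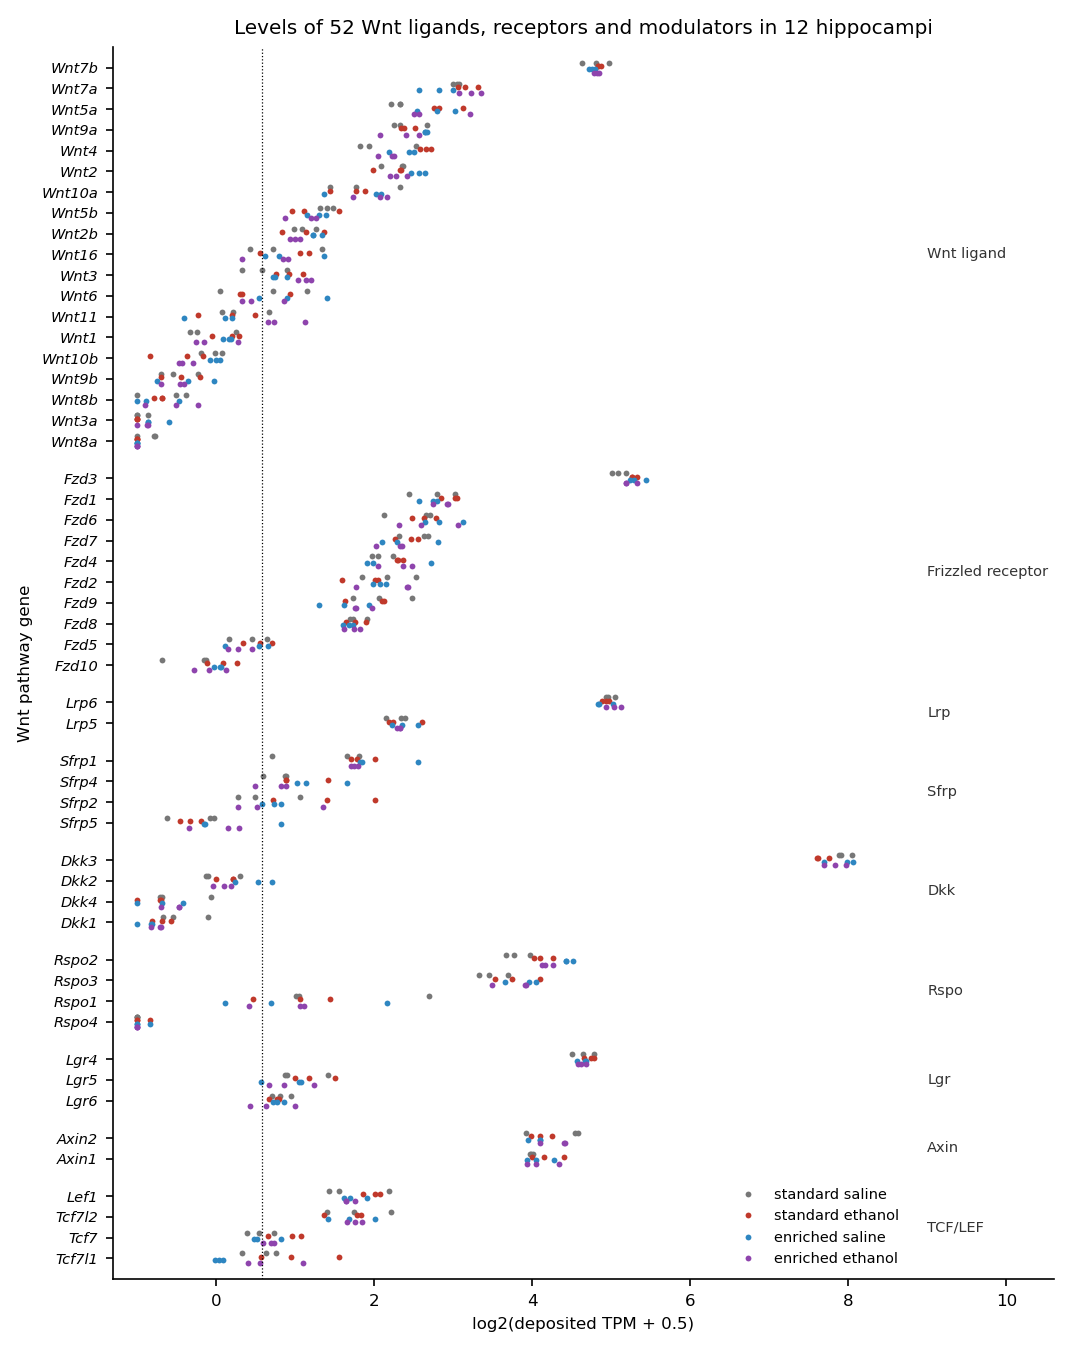
Levels of the 52 Wnt family genes, as log2(deposited TPM + 0.5) on the horizontal axis, by role and in order of mean level; each point is 1 library, coloured by group, and the dotted line marks the mean of 1 required for testing. Dkk3 lies far to the right of every other gene, and 14 genes centre to the left of the line.

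Among the 19 ligands, Wnt7b held 40.2% of the summed ligand level. Wnt7b and Wnt7a, closely related ligands that also act on brain vessels, were the ligands with the highest means. Wnt7b was at 24.3, 31.0 and 27.6 in standard saline, 28.1, 28.9 and 28.1 in standard ethanol, 26.6, 25.8 and 27.3 in enriched saline, and 27.7, 27.0 and 28.4 in enriched ethanol libraries. Enriched saline libraries lay below all standard ethanol libraries, and every other pair of groups overlapped. The other tested ligands ran from Wnt5a at a mean of 6.10 through Wnt9a (5.06), Wnt4 (4.62), Wnt2 (4.60), Wnt10a (3.17), Wnt5b (1.91), Wnt2b (1.69), Wnt16 (1.35) and Wnt3 (1.34) to Wnt6 (1.15). The other 7 ligands lay under the filter, namely Wnt11, Wnt1, Wnt10b, Wnt9b, Wnt8b, Wnt3a and Wnt8a, with means from 0.81 down to 0.014. Wnt8b, a ligand of the embryonic hippocampal field, was at 0, 0.207 and 0.271 in standard saline, 0.125, 0.122 and 0.080 in standard ethanol, 0.222, 0.0425 and 0 in enriched saline, and 0.039, 0.355 and 0.208 in enriched ethanol libraries. It was low in every group, and the groups overlapped. Wnt3a was listed at 0 in 6 libraries and Wnt8a in 10, and such a 0 can be a failed estimate.

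Promoters are shown for 3 of these genes, with means of 18.2 for Axin2, 7.93 for Wnt7a and 0.139 for Wnt8b. They were picked because they differ in level and in base composition. Their difference in CG count was thus part of the choice, and no link of CG count with level was tested. The RefSeq promoter table (GRCm38.p6) held 34 of the 52 members, too few for a statement about the family. Each line gives the 250 bases before the RefSeq start, 5′ to 3′ on the gene's strand, with CG dinucleotides in capitals. The Axin2 stretch is chr11:108920099-108920348 on the plus strand, that of Wnt7a is chr6:91411354-91411603 on the minus strand, and that of Wnt8b is chr19:44493222-44493471 on the plus strand.
Axin2: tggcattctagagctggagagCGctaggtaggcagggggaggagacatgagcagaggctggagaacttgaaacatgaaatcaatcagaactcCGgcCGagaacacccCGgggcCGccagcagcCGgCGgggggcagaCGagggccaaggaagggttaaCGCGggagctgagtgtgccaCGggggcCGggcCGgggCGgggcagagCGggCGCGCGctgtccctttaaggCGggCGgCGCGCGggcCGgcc
Wnt7a: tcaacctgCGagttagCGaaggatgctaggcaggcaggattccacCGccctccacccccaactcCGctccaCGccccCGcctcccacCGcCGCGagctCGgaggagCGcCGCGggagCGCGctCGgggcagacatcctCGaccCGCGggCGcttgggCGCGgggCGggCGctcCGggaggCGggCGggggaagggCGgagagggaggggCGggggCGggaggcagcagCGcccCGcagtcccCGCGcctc
Wnt8b: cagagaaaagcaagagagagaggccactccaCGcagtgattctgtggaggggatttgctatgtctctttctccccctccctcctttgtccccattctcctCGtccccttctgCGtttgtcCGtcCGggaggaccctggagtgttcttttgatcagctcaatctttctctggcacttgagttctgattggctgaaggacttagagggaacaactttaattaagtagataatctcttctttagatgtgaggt
The Wnt7a stretch held 34 CG dinucleotides and that of Axin2 24, whereas Wnt8b held 5; the median over all 32851 promoters of this length was 6. At least as many as in Wnt7a were found in 3.53% of all promoters, and at least as many as in Axin2 in 12% of them. The TCF/LEF words CTTTGAA and CTTTGAT, which do not overlap each other, were searched on both strands. Neither is in these 3 windows, and 7.48% of all promoters hold at least 1 of them.

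Of the 10 Frizzled receptors, Fzd3, a receptor of axon guidance and planar polarity, held 53.1% of the summed level. Fzd1 (6.64), Fzd6 (5.95), Fzd7 (4.86), Fzd4 (4.26), Fzd2 (3.83), Fzd9 (3.26) and Fzd8 (2.85) followed, while Fzd5 (0.86) and Fzd10 (0.47) stayed under the filter. Fzd9, a Frizzled expressed in the hippocampus, was at 5.11, 2.83 and 3.70 in standard saline, 3.80, 2.60 and 3.89 in standard ethanol, 1.98, 2.59 and 3.35 in enriched saline, and 2.90, 3.44 and 2.91 in enriched ethanol libraries. Its groups overlapped throughout. Lrp6 was even across the study, at 30.1, 32.6 and 30.7 in standard saline, 31.0, 30.3 and 29.0 in standard ethanol, 28.3, 32.0 and 28.1 in enriched saline, and 32.3, 34.5 and 30.0 in enriched ethanol libraries. Its relative Lrp5 averaged 4.57 (3.95 to 5.58).

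Lgr4, which receives R-spondins and so protects Frizzled from removal at the membrane, was at 22.3, 27.2 and 24.6 in standard saline, 27.1, 24.8 and 26.3 in standard ethanol, 23.2, 24.9 and 25.2 in enriched saline, and 25.2, 23.4 and 24.1 in enriched ethanol libraries. These groups overlapped as well. Lgr5, a stem cell marker in other tissues, averaged 1.58 and Lgr6 1.21. The Sfrp genes, and the Dkk genes other than Dkk3, were low. Sfrp1, Sfrp4 and Sfrp2, secreted decoys that bind Wnts, averaged 3.02, 1.5 and 1.43, and Sfrp5 0.48. Dkk2 averaged 0.66, Dkk4 0.16 and Dkk1 0.13. Frzb, an extracellular regulator outside the symbol rule, was higher, at a mean of 16.7 (11.7 to 25.9). Rspo1 averaged 1.96, with 6.00 in standard saline replicate 1 and 3.97 in enriched saline replicate 3 against 0.58 to 2.23 in the other 10 libraries. Rspo4 was listed at 0 in 10 libraries.

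The first comparison asked what early ethanol left in standard-housed adults. Mean levels of the ligands Wnt5a and Wnt4, of Rspo2 and of Fzd3 were higher after ethanol than after saline in standard cages, and that of Dkk3 was lower, each with no overlap between the groups. None of these passed: limma called 0 of the 38 members at an adjusted p under 0.05, where 0.0134% of all tested genes were called. At an unadjusted p under 0.05 there were 5 of 38 members, against 7.39% of all genes; 4 were higher and 1 lower, against 3.75% and 3.64% of all genes. The groups did not overlap for 6 of 38 members, the 5 named and Fzd4, where 12.1% of all genes showed the same. Of these members 5 were higher and 1 lower, against 6.11% and 5.99% of all genes.

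Wnt5a, a ligand of the noncanonical branch (chromosome 14, 28504750 to 28527448, GRCm38), was at 4.15, 4.53 and 4.55 in standard saline and at 6.59, 6.28 and 8.23 in standard ethanol libraries. Every ethanol library thus lay above every saline library (log2 difference 0.61, SE 0.20; limma adjusted p = 0.511). In the enriched cages it was at 7.63, 5.36 and 6.44 in saline and 5.42, 5.21 and 8.82 in ethanol mice, which overlapped. Wnt4, a ligand known from kidney and gonad development (chromosome 4, 137277489 to 137299726), was at 3.34, 3.05 and 5.31 in standard saline and 6.13, 5.81 and 5.51 in standard ethanol libraries. The highest saline library was close to the lowest ethanol library (log2 difference 0.56, SE 0.19; limma adjusted p = 0.528). Leaving out standard saline replicate 2 gave 0.42, and leaving out replicate 3 of that group gave 0.77.

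Dkk3 (chromosome 7, 112116017 to 112159057) was at 263, 235 and 239 in standard saline and at 194, 216 and 196 in standard ethanol libraries. In means ± SD this is 246 ± 15.2 against 202 ± 12.4 (n = 3 each; log2 difference -0.28, SE 0.10; limma adjusted p = 0.540). Enriched saline libraries were at 252, 207 and 267, and enriched ethanol libraries were at 228, 251 and 207. Fzd3 (chromosome 14, 65192449 to 65262463) was at 31.8, 33.7 and 36.0 in standard saline and at 39.5, 38.1 and 38 in standard ethanol libraries, with no overlap (log2 difference 0.19, SE 0.07; limma adjusted p = 0.600). Enriched ethanol libraries were at 39.5, 36 and 36.

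Over the 38 members the median log2 difference was 0.09, with 22 higher and 16 lower, and over all tested genes it was 0.0024. Among the marker sums given next, those of granule cells overlapped between standard saline and standard ethanol mice, and the others did not. The summed level of 12 neural progenitor and immature neuron markers, all in the table, was 166 to 176 in standard saline and 193 to 209 in standard ethanol mice, and 156 to 177 and 169 to 201 in the enriched groups. Granule cell markers summed to 324 to 477 and 261 to 331, and fibroblast markers to 85.1 to 147 and 151 to 206, in standard saline and standard ethanol mice. The 9 oligodendrocyte precursor markers, all in the table, summed to 233 to 237 and 260 to 284. Sums follow the most abundant genes, such as Hopx (82.6 to 102 over the 12 libraries) and Calb2 (16.5 to 47.3) for the progenitor list. Averaged as the log2 deviation of each gene from its 12-library mean, fibroblast markers overlapped between standard saline and standard ethanol mice. By that measure granule cell, progenitor and oligodendrocyte precursor markers did not. The part of these cell types in the differences was not tested.

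**Figure D2:**
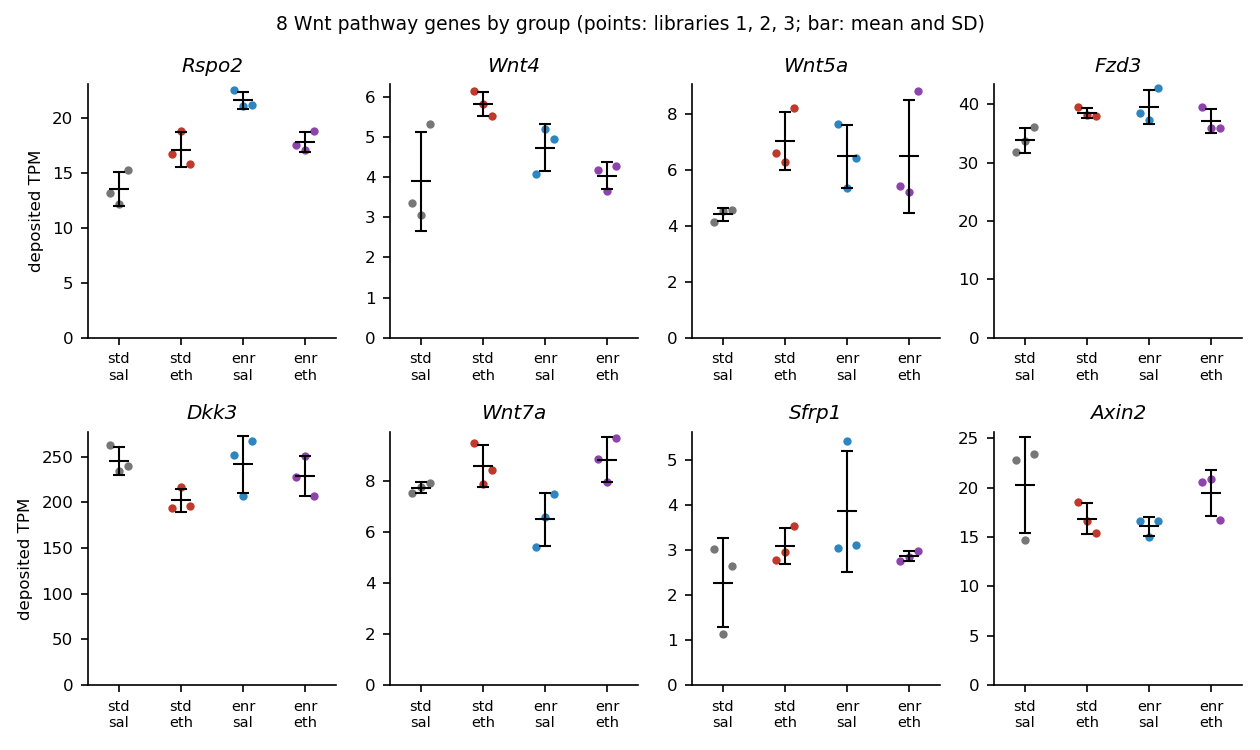
Deposited TPM of 8 Wnt family genes in standard saline (std sal), standard ethanol (std eth), enriched saline (enr sal) and enriched ethanol (enr eth) mice; points are libraries 1, 2 and 3 from left to right, and bars show the mean and SD of 3. Rspo2 is lowest in standard saline, at 12.2 to 15.2, and highest in enriched saline mice, at 21 to 22.5.

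Enrichment in saline mice gave the smallest p of any member in the 7 comparisons. Rspo2, a secreted R-spondin that amplifies Wnt signals through Lgr receptors (chromosome 15, 43020794 to 43170826), was at 13.2, 12.2 and 15.2 in standard saline and at 22.5, 21 and 21.2 in enriched saline libraries. The 3 enriched libraries lay well above the 3 standard ones, with means of 21.6 ± 0.80 against 13.5 ± 1.54 (SD). The log2 difference was 0.66 (SE 0.10), a 1.58-fold higher level, and it narrowly missed the threshold (limma unadjusted p = 2.49e-05, adjusted p = 0.0744). It passed when each library was rescaled to a common sum (log2 difference 0.68, limma adjusted p = 0.0411) and without standard saline replicate 3 (0.74, limma adjusted p = 0.0339). Over all alternatives the adjusted p ran from 0.0339 to 0.273 and the log2 difference from 0.59 to 0.74. Between the same groups, 4 of the 17 marker lists had sums that did not overlap, each list complete in the table. Standard saline and enriched saline libraries ran from 132 to 144 and 158 to 190 for 9 striatum markers, from 588 to 626 and 642 to 693 for 11 CA2 and CA3 markers, from 58.0 to 64.66 and 64.74 to 68.1 for 7 Cajal-Retzius cell markers, and from 233 to 237 and 209 to 231 for oligodendrocyte precursor markers. Of these 4 lists, only striatum markers also lay apart when averaged as log2 deviation from the 12-library mean. The CA2 and CA3 sum followed Pcp4, at 299, 265 and 257 in standard saline and 339, 371 and 341 in enriched saline libraries. The Cajal-Retzius sum followed Reln, also listed as an interneuron marker, at 32.9, 31.2 and 34.9 against 38.4, 43.0 and 41.8. The part of these cell types in the Rspo2 difference was not tested.

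In this comparison limma called 0 of 38 members, against 0.0268% of all tested genes, and 5 of 38 had an unadjusted p under 0.05, against 10% of all genes. All 5 were higher in enriched mice, where 5.43% of all genes were: Rspo2, Fzd3, Wnt5a, Sfrp1 and Rspo3. Groups did not overlap for 8 of 38 members, where 14.0% of all genes did the same. Besides Rspo2, Fzd3, Wnt5a and Sfrp1, these were Wnt2 and Sfrp4 on the higher side and Wnt7a and Tcf7l1 on the lower, so that 6 were higher and 2 lower, against 7.40% and 6.57% of all genes. Fzd3 was at 38.6, 37.3 and 42.8 in enriched saline libraries, above the 31.8 to 36.0 of standard saline libraries (log2 difference 0.22, SE 0.07; limma adjusted p = 0.397). For Wnt5a the log2 difference was 0.50 (SE 0.20; limma adjusted p = 0.442). Both genes, like Rspo2, were compared with the same 3 standard saline libraries as in the ethanol comparison, so the 2 comparisons are not independent.

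Sfrp1 rested on a pair of libraries that stood apart in their cell type markers. It was at 3.01, 1.14 and 2.65 in standard saline and at 3.03, 5.40 and 3.12 in enriched saline libraries. Standard ethanol libraries were at 2.76, 2.95 and 3.53, and enriched ethanol libraries at 2.76, 2.85 and 2.98. The 1.14 belongs to standard saline replicate 2 and the 5.40 to enriched saline replicate 2, the library with the choroid plexus sum of 9233. The log2 difference of 0.68 (SE 0.29; limma adjusted p = 0.468) became 0.35 without the former and 0.44 without the latter. Rspo3 was at 12.5, 9.55 and 10.5 in standard saline, 12.9, 11.1 and 16.6 in standard ethanol, 12.1, 15 and 16.1 in enriched saline, and 10.8, 14.5 and 14.7 in enriched ethanol libraries. Standard saline and enriched saline libraries overlapped (log2 difference 0.40, SE 0.17; limma adjusted p = 0.482). The median log2 difference over the 38 members was 0.03, beside 0.0028 over all tested genes.

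Enriched saline replicate 2 was also the highest of the 12 libraries for Fzd4 (6.10), Fzd6 (8.23), Fzd7 (6.51), Sfrp4 (2.65), Sfrp5 (1.28) and Wnt9a (5.89, level with standard saline replicate 1). Elsewhere Fzd4 reached at most 5.09, Fzd6 7.89, Fzd7 5.95, Sfrp4 2.17 and Sfrp5 0.73. The part of choroid plexus tissue in these levels was not tested. In Rspo2 that library, at 21, differed little from the other enriched saline libraries.

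Ethanol was next compared within enriched cages. Wnt7a was higher in enriched ethanol than in enriched saline mice, and Rspo2 was lower, with no overlap between groups in either. Limma called 0 of 38 members, as it called 0% of all tested genes, and 2 of 38 had an unadjusted p under 0.05 against 7.76% of all genes. Of these 1 was higher and 1 lower, against 3.85% and 3.91% of all genes. Wnt7a (chromosome 6, 91363981 to 91411363) was at 5.42, 6.59 and 7.49 in enriched saline and at 8.88, 7.97 and 9.71 in enriched ethanol libraries (log2 difference 0.42, SE 0.13; limma adjusted p = 0.576). In standard cages it was at 7.52, 7.79 and 7.94 in saline and 9.50, 7.89 and 8.43 in ethanol mice, which overlapped. Enriched saline mice were thus the lowest of the 4 groups for Wnt7a.

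Rspo2 was at 17.5, 17 and 18.8 in enriched ethanol libraries, under the 21 to 22.5 of enriched saline libraries (log2 difference -0.27, SE 0.10; limma adjusted p = 0.592). In standard cages the order was the opposite, with standard ethanol at 16.7, 18.8 and 15.7 above standard saline (0.33, SE 0.10; limma adjusted p = 0.484). Groups did not overlap for 10 of 38 members, where 15.2% of all genes showed this. Wnt7a, Wnt3, Axin2 and Tcf7l1 were on the higher side in ethanol mice and Wnt9a, Wnt2, Wnt2b, Sfrp1, Sfrp4 and Rspo2 on the lower, 4 and 6 members against 7.78% and 7.45% of all genes. The median log2 difference was -0.04 over the 38 members and -0.0071 over all tested genes. For 4 lists the sums did not overlap between enriched saline and enriched ethanol mice: striatum (158 to 190 and 135 to 149), Cajal-Retzius cell (64.74 to 68.1 and 55.6 to 64.66), astrocyte (10 markers, all in the table, 2970 to 3079 and 3280 to 3425) and oligodendrocyte precursor (209 to 231 and 237 to 288). Averaged as log2 deviation from the 12-library mean, striatum and astrocyte markers still lay apart. Cajal-Retzius cell and oligodendrocyte precursor markers overlapped by that measure. Progenitor and immature neuron sums overlapped, but their list mean did not, at -0.24 to -0.011 in enriched saline and 0.035 to 0.27 in enriched ethanol libraries. The part of these cell types was not tested. The summed choroid plexus markers given above differed between these groups through 1 library, and their part was not tested; without that library the log2 difference of Rspo2 was -0.29.

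In ethanol mice, enrichment was set against standard cages. Wnt4 was lower in the enriched mice, without passing. Limma called 0 of 38, against 0.00669% of all tested genes, and 1 of 38, Wnt4, had an unadjusted p under 0.05, against 5.57% of all genes. Wnt4 was at 4.18, 3.66 and 4.28 in enriched ethanol libraries, under the 5.51 to 6.13 of standard ethanol libraries (log2 difference -0.48, SE 0.19; limma adjusted p = 0.880). Enriched saline libraries were at 4.07, 5.19 and 4.94. Groups failed to overlap for 2 of 38 members, Wnt4 and Lef1, where 12% of all genes did. Both were lower and 0 higher, against 5.97% and 6.07% of all genes. The median log2 difference was -0.06 over the members, beside -0.0054 over all genes tested.

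**Figure D3:**
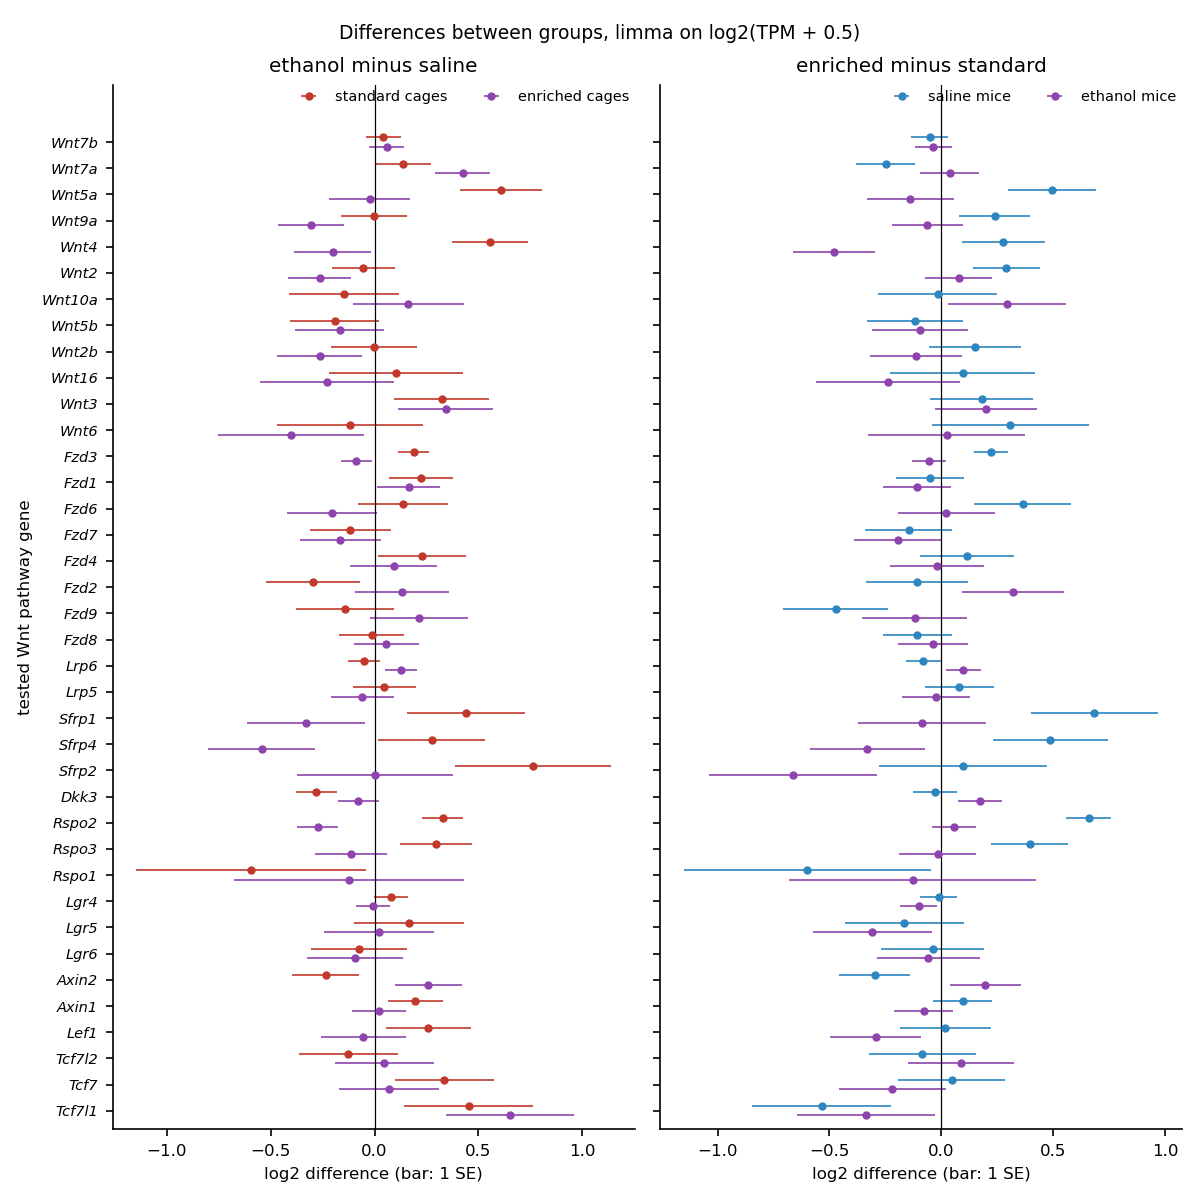
Log2 differences with 1 SE for the 38 tested genes, for ethanol against saline in each housing on the left and for enriched against standard cages in saline and in ethanol mice on the right. Rspo2 for enrichment in saline mice, at 0.66, lies farthest from 0 relative to its SE.

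Among the TCF/LEF factors, groups overlapped throughout for Tcf7 and Tcf7l2, but not for Lef1 and Tcf7l1. Lef1 was at 2.44, 2.20 and 4.06 in standard saline, 3.72, 3.15 and 3.52 in standard ethanol, 3.28, 2.74 and 2.58 in enriched saline, and 2.64, 2.64 and 2.91 in enriched ethanol libraries. The standard saline libraries alone covered the range of the other groups, and standard ethanol libraries lay above enriched ethanol libraries without overlap. Tcf7l2, which is abundant in the thalamus, was at 2.15, 2.87 and 4.15 in standard saline, 3.08, 2.08 and 2.96 in standard ethanol, 2.17, 2.72 and 3.55 in enriched saline, and 2.66, 2.88 and 3.09 in enriched ethanol libraries. All groups overlapped. The 15 thalamus and habenula markers, all in the table, summed to 138 to 167, 159 to 179, 152 to 176 and 149 to 176 in the same order of groups. Tcf7l1, a factor that mostly represses, was at 0.758, 1.05 and 1.19 in standard saline, 2.45, 0.992 and 1.43 in standard ethanol, 0.490, 0.562 and 0.533 in enriched saline, and 0.828, 1.65 and 0.979 in enriched ethanol libraries. Enriched saline libraries were lower than all 9 others, at levels where the mean only just passed the filter. It passed through the other groups, as the enriched saline mean was 0.53.

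Averaged over housing, 6 ethanol libraries were set against 6 saline libraries. Wnt7a and Tcf7l1 were higher and Dkk3 lower in ethanol mice at an unadjusted p under 0.05, and none passed. The log2 differences were 0.28 for Wnt7a (SE 0.09; limma adjusted p = 0.50), 0.55 for Tcf7l1 (SE 0.22; limma adjusted p = 0.575) and -0.18 for Dkk3 (SE 0.07; limma adjusted p = 0.556). The arms overlapped for every member, where 0.415% of all genes did not. Limma called 0 of 38 members, against 0.0134% of all genes, and 3 of 38 at an unadjusted p under 0.05, against 8.02% of all genes. Of these 2 were higher and 1 lower, against 3.97% and 4.05% of all genes.

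Averaged over ethanol, enrichment left Rspo2 as the 1 member of 38 with an unadjusted p under 0.05, against 7.96% of all genes in either direction and 4.14% on the higher side. Its log2 difference was 0.36 (SE 0.07; limma unadjusted p = 2.64e-04, adjusted p = 0.246). The 6 enriched libraries ranged from 17 to 22.5 and the 6 standard libraries from 12.2 to 18.8, so the arms overlapped, as they did for every member; 0.375% of all genes did not overlap. Limma called 0 of 38 members for this average, against 0.0201% of all genes.

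The interaction asked whether the ethanol difference itself changed with housing. Rspo2 had the smallest p, with an ethanol difference of 0.33 in standard and -0.27 in enriched cages (interaction -0.60, SE 0.14; limma unadjusted p = 0.00106, adjusted p = 0.509). Wnt4 had 0.56 and -0.20 (interaction -0.76, SE 0.26; limma adjusted p = 0.595), and Fzd3 0.19 and -0.09 (interaction -0.28, SE 0.11; limma adjusted p = 0.620). Axin2, a scaffold that beta-catenin itself induces and therefore a common readout of canonical signalling, had -0.24 and 0.26 (interaction 0.50, SE 0.23; limma adjusted p = 0.671). Axin2 was at 22.8, 14.7 and 23.4 in standard saline, 18.5, 16.7 and 15.4 in standard ethanol, 16.6, 15 and 16.7 in enriched saline, and 20.6, 20.9 and 16.7 in enriched ethanol libraries. In standard cages the single low saline library, replicate 2, lay under all ethanol libraries, and without it the interaction was 0.71. Without standard saline replicate 3 the Axin2 interaction was 0.38, and its limma unadjusted p was under 0.05 in 9 of 20 alternatives. Limma called 0 of 38 members for the interaction, against 0.0134% of all genes, while 6 of 38 had an unadjusted p under 0.05 against 7.41% of all genes. The other 2 were Wnt5a (-0.63, SE 0.28) and Sfrp4 (-0.82, SE 0.36), the latter -0.63 without enriched saline replicate 2. Their limma unadjusted p was under 0.05 in 10 of 20 alternatives for Wnt5a and in 11 of 19 for Sfrp4.

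**Figure D4:**
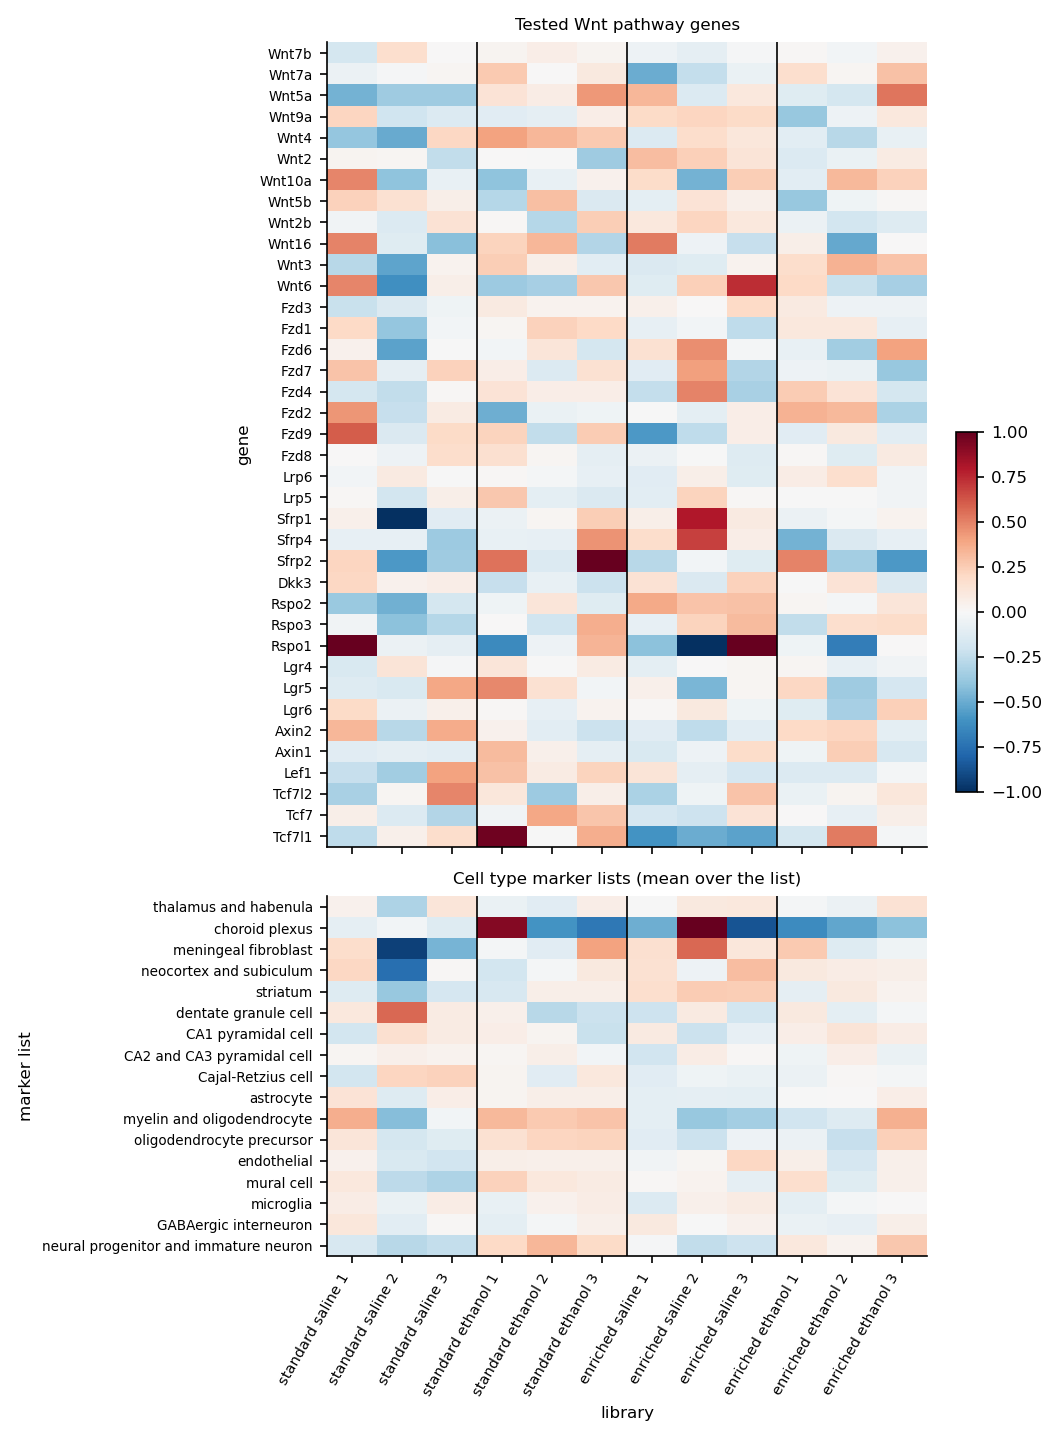
Log2 deviation of each library from the 12-library mean for the 38 tested genes (top) and for the mean of each cell type marker list (bottom), with libraries in columns and group borders as lines; colours stop at -1 and 1. Standard saline replicate 2 is the lowest library for 12 of the 38 genes, a count not made over all tested genes, and for fibroblast markers. Enriched saline replicate 2 is high for Sfrp1, Sfrp4 and choroid plexus markers.

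Partners of the family outside the symbol rule were listed as 112 genes in 6 groups, of which 111 were in the table and 102 tested. Limma called none of the 102 in any of the 7 comparisons. At an unadjusted p under 0.05 there were 8 of 102 for ethanol in standard cages (7.39% of all genes), 8 for ethanol in enriched cages (7.76% of all genes), 15 for enrichment in saline mice (10% of all genes) and 6 for enrichment in ethanol mice (5.57% of all genes). There were 5 for ethanol averaged over housing (8.02% of all genes), 13 for enrichment averaged over ethanol (7.96% of all genes) and 10 for the interaction (7.41% of all genes). In the planar polarity and calcium group, with 23 of 24 tested, Vangl2 came closest. This core planar polarity protein was at 7.09, 8.70 and 9.64 in standard saline, 9.98, 6.49 and 9.42 in standard ethanol, 5.65, 5.81 and 4.89 in enriched saline, and 5.74, 4.31 and 5.30 in enriched ethanol libraries. All 6 enriched libraries lay under all 6 standard libraries (log2 difference -0.64, SE 0.13; limma adjusted p = 0.246), as 0.140% of all tested genes did in that direction.

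In the beta-catenin destruction complex group, with 25 of 25 tested, Apc, a scaffold of the complex, was higher in ethanol mice when averaged over housing (log2 difference 0.25, SE 0.06; limma adjusted p = 0.338). Its means were 202 ± 17.5 and 240 ± 12.4 in standard saline and standard ethanol, and 182 ± 15.8 and 214 ± 9.73 in enriched saline and enriched ethanol mice (SD, n = 3). Beta-catenin itself, Ctnnb1, averaged 375 ± 28.8 in standard saline, 421 ± 18.8 in standard ethanol, 417 ± 29.0 in enriched saline and 393 ± 8.94 in enriched ethanol mice. Amer2, which recruits Apc to the membrane, was lower with enrichment in saline mice (-0.28, SE 0.07; limma adjusted p = 0.286) and higher with ethanol in enriched cages (0.26, SE 0.07; limma adjusted p = 0.576). Of the 16 tested nuclear co-factors, the repressor Tle1 had the smallest p for ethanol in standard cages (-0.31, SE 0.10; limma adjusted p = 0.498). Of 15 tested secretion and extracellular regulators, Ndp, a non-Wnt ligand of Fzd4, was lower with enrichment averaged over ethanol (-0.27, SE 0.09; limma adjusted p = 0.559). Of 11 tested receptor turnover and co-receptor genes, Dvl1, which relays the Frizzled signal, was lower with ethanol averaged over housing (-0.17, SE 0.06; limma adjusted p = 0.50). Among 14 tested beta-catenin targets, 0 had an unadjusted p under 0.05 for ethanol in standard cages (7.39% of all genes) or in enriched cages (7.76% of all genes), while Neurod1, a neuronal differentiation factor, was higher with ethanol averaged over housing (0.18, SE 0.08; limma unadjusted p = 0.0467, adjusted p = 0.621). Tnfrsf19 and Prox1 had such a p for enrichment in saline mice (0.21 and -0.55, limma adjusted p = 0.473 and 0.447), where 10% of all genes did. Prox1 is also in the granule cell marker list, and Neurod1 in the progenitor and immature neuron list. The part of these cell types was not tested.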

How the data were processed

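Libraries from 12 hippocampi were measured, 1 column per library. Per the labels' protocols, total RNA was made into stranded libraries after ribosomal RNA depletion. Per the submitters' processing notes, CASAVA, kallisto and sleuth were used with mm10; their versions, order and annotation are not stated there. The deposited signal, named TPM by the authors, has column sums that differ, so each library carries a further factor; the design had assumed plain TPM, and the test is the same for both. All 12 value columns matched a sample by name, with 0 left over.

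Symbols and positions came from GENCODE M21 (GRCm38, the assembly of mm10), with 35827 of 36119 identifiers named. On log2(TPM + 0.5), limma 3.58.1 in R 4.3.3 fitted 4 group means to genes with a mean of at least 1 (8 residual degrees of freedom, 3.82 prior), with a mean-variance trend. Fold changes on this scale understate low genes. Tests of 7 contrasts were two-sided, Benjamini-Hochberg adjusted over all 14947 genes, with a threshold of 0.05; a p above it does not show that levels were alike. The script was tested on simulated data. Members, gene lists and contrasts were chosen with earlier results of these data known. Named with values in every library were, per contrast, up to 3 members a direction with the smallest p under 0.05, the highest member of each role, and Wnt7a, Wnt7b, Wnt5a, Wnt8b, Fzd9, Axin2, Lef1 and Tcf7l2; of partner lists, up to 3 genes with the smallest p. Rspo3, Wnt2, Sfrp4, Fzd4 and other members outside this rule were named after their values were seen. Alternatives changed the pseudocount, filter, scaling, trend, block and libraries. Promoters came from RefSeq.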

Additional observations from a re-analysis of the deposited data

How the results depend on the processing

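The count of Wnt members called stayed at 0 for 6 of the 7 comparisons under every alternative, and for enrichment in saline mice it was 1 (Rspo2) with libraries rescaled to a common sum and 0 to 1 when single libraries were left out, with 1 reached without standard saline replicate 3; the cause was not tested. Differences of members at an unadjusted p under 0.05 kept their direction under every alternative run; those of partner genes and of other named members were not recomputed. No pairing by replicate number was visible: deviations of same-numbered libraries correlated between -0.15 and 0.058 and 2 of 12 libraries correlated best with their own number. With 3 libraries per group this cannot exclude a litter or batch shared by same-numbered mice. With the replicate block limma called 0 members in every comparison, and 2, 0, 3, 1, 1, 2 and 2 genes in all for ethanol in standard and enriched cages, enrichment in saline and ethanol mice, the ethanol and enrichment averages and the interaction, against 2, 0, 4, 1, 2, 3 and 2 without it. Over all alternatives those counts of all genes ran from 0 to 7, 0 to 15, 1 to 20, 0 to 21, 0 to 10, 0 to 12 and 0 to 12, with the highest reached without standard saline replicate 2 in the first (also with no filter) and the third, and without enriched ethanol replicate 3 in the others. Members at an unadjusted p under 0.05 ran from 4 to 7, 1 to 7, 3 to 6, 0 to 3, 1 to 5, 1 to 3 and 2 to 6 in the same order. Depth is unknown, so no counting error is given for low genes.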

Other observations

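Members under the filter were fitted only without it, and none passed. Wnt11 was at 1.08, 1.16 and 1.68 in enriched ethanol libraries and between 0.255 and 0.651 in enriched saline libraries (log2 difference 0.87; limma unadjusted p = 0.00744, adjusted p = 0.702). Wnt10b, a canonical ligand, averaged 0.48 in the standard saline and 0.50 in the enriched saline libraries, and 0.24 and 0.26 in the standard and enriched ethanol libraries (log2 difference over both housings -0.40; limma adjusted p = 0.587).

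Extremes by library and by group mean were counted for the members only. The same counts were not made over all tested genes, so they show nothing particular to the members. Of the 38 tested members, standard saline replicate 2 was the lowest of 12 libraries for 12, among them Rspo2, Wnt4, Wnt3, Sfrp1, Fzd1, Fzd6 and Axin2, and the highest for 2, Wnt7b and Lgr4. Enriched saline replicate 2 was the highest for 6 and enriched ethanol replicate 1 for 0. By group means, standard saline was lowest for 13 members and standard ethanol and enriched saline highest for 12 each.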
